A study of Homo sapiens with 3 samples.

Results

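Peaks of DDX6-bound RNA at splice sites and in the intron next to them are described here. They are the peaks that the authors' annotation placed first in a 5' splice-site, 3' splice-site or proximal-intron class, whatever their p or fold. There were 4106 of them among 185709 peaks. IP replicate 1 held 2499 of its 123298 peaks in these classes, and IP replicate 2 held 1607 of 62411. The RNA came from MOLM-13, a human acute myeloid leukaemia cell line grown in culture without treatment. In eCLIP, cells are irradiated so that RNA is fixed to the proteins that touch it, the RNA is trimmed with RNase I, and the fragments recovered with an antibody (here against DDX6) are sequenced beside an input. The series has 2 DDX6 immunoprecipitation (IP) libraries and 1 input library. Both IP libraries were compared with that same input by the authors, so their peak values are not independent of each other. The labels do not state that the IP replicates are separate cultures. The p-values below therefore reflect the spread of these libraries alone, and that spread may be technical. In the test of gene regions the spread was pooled over genes. A gene on which the IP libraries disagree can therefore still be called.

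DDX6 is a DEAD-box RNA helicase of the cytoplasm. It holds mRNAs back from translation, helps to decap them, and P-bodies, granules that store untranslated mRNA, do not form without it. Introns are removed in the nucleus by the spliceosome, in which the U1 snRNP recognises the 5' splice site at the upstream exon border, and the factors SF1 and U2AF recognise the branch point and the 3' splice site at the downstream border. Intronic reads can therefore come from unspliced RNA, from excised introns, or from RNAs encoded inside introns, and this list is not complete. The source of the reads described here was not tested.

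In the peaks annotated to each class, at most 101 bases belonged to a 5' splice-site window, at most 98 to a 3' splice-site window and at most 180 to proximal intron. The labels do not define these windows. The class is the first annotation entry, and further entries were common. They were listed for 51.7% of 5' splice-site, 51.7% of 3' splice-site and 53.3% of proximal-intron peaks of IP replicate 1. For IP replicate 2 these shares were 51.7%, 53.7% and 52.2%. The further entries were not sorted by class here. The class was often not the whole peak. Only 46.4% of 5' splice-site peaks, 50.8% of 3' splice-site peaks and 91.1% of proximal-intron peaks of IP replicate 1 lay wholly in bases of their class, and for IP replicate 2 these shares were 59.7%, 65.8% and 91.8%. Over 50% of the bases belonged to the class in 74.1% of 5' splice-site peaks of IP replicate 1 and 77.7% in IP replicate 2.

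The tables gave a depth of 4643494 reads in the first IP library, 1244213 in the second and 7807540 in the input. The myeloid genes PTPRC, CD33, SPI1, FLT3, MPO and LYZ had exonic reads in every library, for example 831 and 198 reads of FLT3 in IP replicate 1 and IP replicate 2 and 420 in the input. No genome of the build used by the files was at hand, so sites are given by position (hg19) and no sequence is printed. Intervals and the 3-read floor describe counting error alone.

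Proximal-intron peaks were the most numerous and 3' splice-site peaks the fewest in both IP libraries. IP replicate 1 had 1830 proximal-intron, 429 5' splice-site and 240 3' splice-site peaks, and IP replicate 2 had 1067, 350 and 190. The peaks were spread over many genes. They lay in 1727 genes in IP replicate 1 and 1087 in IP replicate 2, of which 449 were shared, 26.0% of the genes of the first library and 41.3% of those of the second. A gene held a median of 1 such peak in either library, and 71.8% of the genes in IP replicate 1 and 64.2% in IP replicate 2 held a single one. NLRC5, a regulator of MHC class I genes, had the most in IP replicate 1 (12 peaks), and MIRLET7BHG, the host gene of let-7 microRNAs, had the most in IP replicate 2 (10 peaks). Both were picked after their counts were seen. All 3 classes occurred together in 25 genes of IP replicate 1 and 8 of IP replicate 2.

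Few of these peaks passed the call rule used here, a -log10 p of 3 or more and a log2 fold over input of 3 or more, both as the authors deposited them. The rule was passed by 40 of 2499 in IP replicate 1 (1.60%) and 73 of 1607 in IP replicate 2 (4.54%). The background was 11.5% of all peaks in IP replicate 1 and 12.9% in IP replicate 2. At 5' splice sites 5 of 429 passed in IP replicate 1 (1.17%, exact Clopper-Pearson 95% interval 0.379% to 2.70%) and 17 of 350 in IP replicate 2 (4.86%, 2.85% to 7.66%). At 3' splice sites 1 of 240 passed in IP replicate 1 (0.417%, 0.0105% to 2.30%) and 5 of 190 in IP replicate 2 (2.63%, 0.860% to 6.03%). In proximal introns 34 of 1830 passed in IP replicate 1 (1.86%, 1.29% to 2.59%) and 51 of 1067 in IP replicate 2 (4.78%, 3.58% to 6.24%). The intervals of the 3 classes overlap within each library, so the classes were not told apart by this share. Distal introns, beyond the proximal part, had 0.924% of 16554 peaks past the rule in IP replicate 1 and 3.78% of 5605 in IP replicate 2, and coding sequence had 14.9% in either library.

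**Figure D1:**
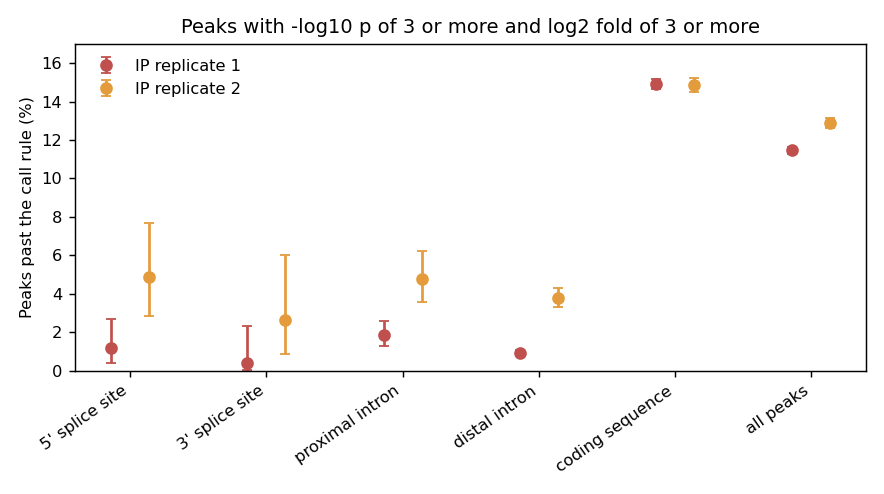
Share of peaks (%, y axis) with a -log10 p of 3 or more and a log2 fold of 3 or more in each class (x axis). Points are IP replicate 1 and IP replicate 2, and bars are exact 95% intervals that cover counting error only. In both libraries the 3 classes at splice sites and in proximal introns lie well below coding sequence at 14.9%.

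The folds of the 3 classes differed more in IP replicate 1 than in IP replicate 2. In IP replicate 1 the median log2 fold over input was 1.42 at 5' splice sites, 1.01 at 3' splice sites and 1.01 in proximal introns, against 0.59 in distal introns, 2.01 in coding sequence and 1.77 over all peaks. In IP replicate 2 all 3 classes had a median of 2.64, with 2.49 in distal introns, 2.32 in coding sequence and 2.29 over all peaks. The higher medians of IP replicate 2 go with the value of a single read there. At the sites of PHOX2A and SLC6A4, which had no input read, the deposited folds gave 1 IP read a log2 fold of 1.01 in IP replicate 1 and 2.64 in IP replicate 2. The medians of 3' splice sites and proximal introns in IP replicate 1, and of all 3 classes in IP replicate 2, equal that value. The value does not mark a peak of a single read, since peaks of differing p hold it. At a log2 fold of 1.01 in IP replicate 1 the -log10 p was, for example, 0.34 at a 3' splice site of C1orf159 and 1.82 at a 5' splice site of ARGLU1. The folds come in steps, and 64.1% of the peaks of these classes in IP replicate 1 and 73.2% in IP replicate 2 held 1 of the 10 commonest values. Classes are therefore compared within a library only.

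Peaks with more input than IP signal were less frequent at 5' splice sites than further into the intron in IP replicate 1. A log2 fold below 0 was found for 9.32% of 5' splice-site, 12.5% of 3' splice-site, 13.0% of proximal-intron and 26.4% of distal-intron peaks there. The shares in IP replicate 2 were 2.29%, 2.11%, 2.91% and 4.14%, so only the distal introns stood last in both libraries, and the order of the 3 classes was not the same. These shares come from peaks of single libraries, with no test between the classes.

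**Figure D2:**
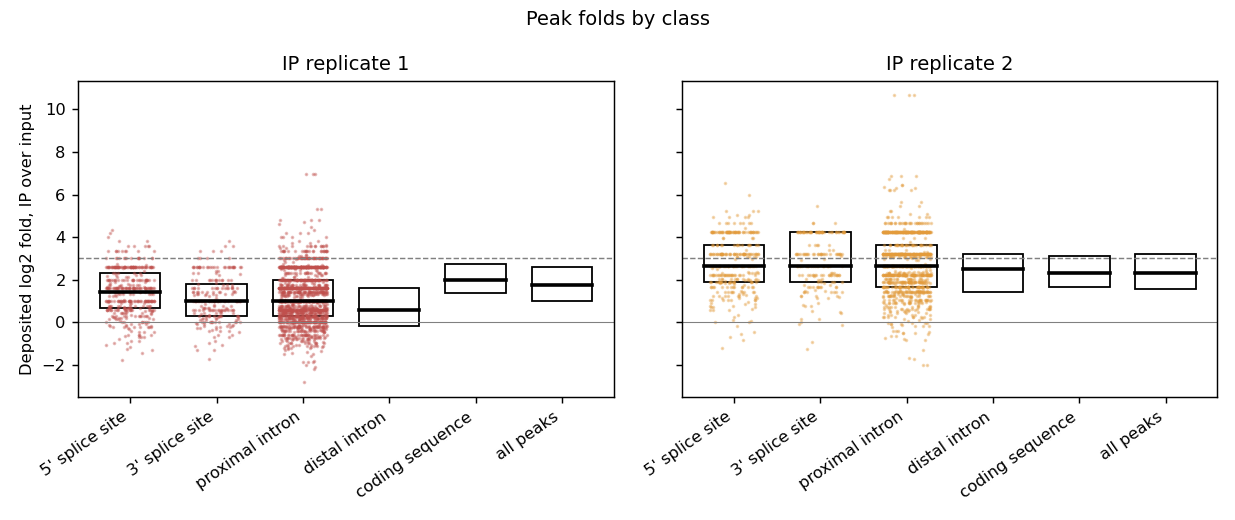
Deposited log2 fold of IP over input (y axis) for each peak of the 3 classes (dots), in IP replicate 1 (left) and IP replicate 2 (right). Boxes show the quartiles with the median as a thick line, also for distal introns, coding sequence and all peaks, and the dashed line marks a log2 fold of 3. The dots lie in rows because few reads make a peak, and the medians of the 3 classes are 1.42, 1.01 and 1.01 in IP replicate 1 and 2.64 each in IP replicate 2.

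Exon borders carried more peaks than these classes count, because a peak that touches an exon was listed as exonic first. For IP replicate 1, 1536 exonic peaks reached into a 5' splice-site window and 1655 into a 3' splice-site window, 3.58 and 6.90 times the number of peaks annotated there. The numbers for IP replicate 2 were 1203 and 1174, or 3.44 and 6.18 times. A median of 3.39% to 5.88% of their bases lay in the window, so they were mostly exonic. Of these border peaks 9.96% (5' side) and 9.67% (3' side) passed the call rule in IP replicate 1, and 18.7% and 16.4% in IP replicate 2. Over all exonic peaks the shares were 13.9% in IP replicate 1 and 14.1% in IP replicate 2, so the border peaks lay below that share in one library and above it in the other. Splice-site peaks also lay near exonic peaks. An exonic peak on the same strand was within 100 bases of 22.4% of 5' splice-site, 19.2% of 3' splice-site and 0.710% of proximal-intron peaks in IP replicate 1, and of 23.4%, 21.6% and 0.0937% in IP replicate 2. In IP replicate 1 the 5' splice-site peaks within 100 bases of an exonic peak had a median log2 fold of 1.01 and those farther away 1.59. Both medians were 2.64 in IP replicate 2.

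Positions were seldom found in both IP libraries. A peak of IP replicate 2 overlapped, by at least 1 base on the same strand, 7.46% of 5' splice-site, 7.08% of 3' splice-site and 5.19% of proximal-intron peaks of IP replicate 1. A peak of IP replicate 1 overlapped 8.29%, 11.1% and 8.62% of those of IP replicate 2. Distal introns were about as low, at 3.75% for IP replicate 1 and 11.5% for IP replicate 2, and the shares for coding sequence were 34.5% and 56.8%. Of the 40 peaks past the call rule in IP replicate 1, 10 had no peak of IP replicate 2 at their position, and of the 73 in IP replicate 2, 31 had none in IP replicate 1.

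The called peaks were short. Of the 40 in IP replicate 1, 24 were under 30 bases, with a median of 20.5 bases, and the 2459 peaks of these classes that missed the rule had a median of 46 bases. Of the 73 in IP replicate 2, 44 were under 30 bases, with a median of 23 bases, against 39 bases for the 1534 others. Distal introns were much alike, with 51.6% of the called peaks under 30 bases in IP replicate 1 (median 28 bases) and 67.0% in IP replicate 2 (median 21 bases). Among called peaks of coding sequence 28.1% in IP replicate 1 and 19.4% in IP replicate 2 were that short. The authors' caller cut some sites into adjoining pieces, as at SYCP2L, so a short peak can be part of a longer site.

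Past the call rule in both libraries there were 11 sites, 1 at a 5' splice site, none at a 3' splice site and 10 in proximal introns, and 10 of the 11 were under 40 bases. The strongest lay in SYCP2L, which encodes a synaptonemal complex protein of oocytes. This proximal-intron site of 36 bases (hg19, chromosome 6, 10887827 to 10887862, plus strand) had a deposited log2 fold of 6.98 in IP replicate 1 and 10.66 in IP replicate 2. Proximal-intron reads of the gene numbered 148 and 265 in the IP libraries and 182 in the input, or 31.9 and 213 RPM in the IP libraries and 23.3 RPM in the input (RPM, reads per 1000000 counted reads of the library). IP replicate 1 was thus close to the input over the whole class, and IP replicate 2 stood far above both. Proximal-intron reads were 32.3% and 81.3% of all reads of SYCP2L in IP replicate 1 and IP replicate 2, and 16.2% in the input.

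At 3 further sites the input had next to no reads of that class. PIP5K1B encodes a kinase that makes the membrane lipid phosphatidylinositol bisphosphate. Its site of 25 bases (hg19, chromosome 9, 71437153 to 71437177, plus strand) had a log2 fold of 5.33 in IP replicate 1 and 6.89 in IP replicate 2. The class had 21 and 19 IP reads and 1 input read, an IP to input ratio of 53.0 over both IP libraries (95% counting interval 8.99 to 2147). MOK encodes a kinase of the MAP kinase superfamily. Its site of 32 bases (hg19, chromosome 14, 102700500 to 102700531, minus strand) had a log2 fold of 4.59 and 6.73, with 14 and 20 IP reads and 2 input reads (ratio 22.5, interval 5.78 to 194). DOCK1 encodes an activator of the GTPase Rac. Its site of 24 bases (hg19, chromosome 10, 129172744 to 129172767, plus strand) had a log2 fold of 4.01 and 6.23, with 11 and 12 IP reads and 3 input reads (ratio 10.2, interval 3.07 to 52.9). In all 3 genes both IP libraries were above the input, and IP replicate 2 had a higher RPM than IP replicate 1.

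Input reads of the class were absent at 2 sites. PHOX2A encodes a homeodomain factor of noradrenergic neurons. Its proximal-intron site of 24 bases (hg19, chromosome 11, 71951995 to 71952018, minus strand) had a log2 fold of 4.82 in IP replicate 1 and 6.45 in IP replicate 2. The class had 14 reads in each IP library and 0 in the input, which with a floor of 3 input reads is at least 7.85-fold higher in the first IP library and at least 29.3-fold higher in the second. All of the PHOX2A reads in IP replicate 2 and 87.5% of those in IP replicate 1 were in this class, and the exons had 1 and 0 reads in the IP libraries and 0 in the input. SLC6A4 encodes the serotonin transporter. No position but that of its 5' splice-site peak had peaks of that class past the rule in both libraries. This peak of 5 bases (hg19, chromosome 17, 28530183 to 28530187, minus strand) had a log2 fold of 4.01 and 4.96. It rested on 8 and 5 IP reads and 0 input reads of the class, so that the IP libraries were at least 4.48-fold and at least 10.5-fold higher.

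MEPCE was described after its values were seen, because the rule for named sites ended above it. At this gene, which encodes the capping enzyme of 7SK RNA, the site was longer (94 bases; hg19, chromosome 7, 100027087 to 100027180, plus strand). Its log2 folds were 3.14 (IP replicate 1) and 3.06 (IP replicate 2). Its class had 10.3 and 9.64 RPM in the IP libraries and 2.18 in the input. At MEPCE the 2 IP libraries had nearly the same level, unlike at the other sites just described.

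At the last 4 sites the class as a whole was not above the input in both IP libraries. CARS2, for the mitochondrial cysteinyl-tRNA synthetase, had a site of 26 bases (hg19, chromosome 13, 111299824 to 111299849, minus strand) with a log2 fold of 4.71 and 6.30, and 11.4 and 37.0 RPM in the IP libraries and 17.4 in the input. NFIC, for a transcription factor, had a site of 22 bases (hg19, chromosome 19, 3424707 to 3424728, plus strand) with a log2 fold of 3.71 and 6.89, and 12.1 and 24.1 RPM against 16.9. CEP72, for a centrosomal protein, had a site of 23 bases (hg19, chromosome 5, 624413 to 624435, plus strand) with a log2 fold of 3.59 and 4.96, and 9.48 and 9.64 RPM against 10.8. In these 3 genes, and in SF3A3 given next, IP replicate 1 lay below the input. At CEP72 IP replicate 2 did so as well. The class sums cover every proximal intron of the gene, not the site alone. SF3A3, a subunit of the SF3a complex of the U2 snRNP, had a site of 23 bases (hg19, chromosome 1, 38442330 to 38442352, minus strand) with a log2 fold of 3.01 and 6.34, and 6.46 and 13.7 RPM against 12.3. Over the 11 genes, 10 had a higher class RPM in IP replicate 2 than in IP replicate 1, with CEP72 almost level and MEPCE the exception, and 7 were above the input in both IP libraries. Exonic RNA was scarce in 5 of the 11 genes, which had under 10 exonic reads in the input.

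**Figure D3:**
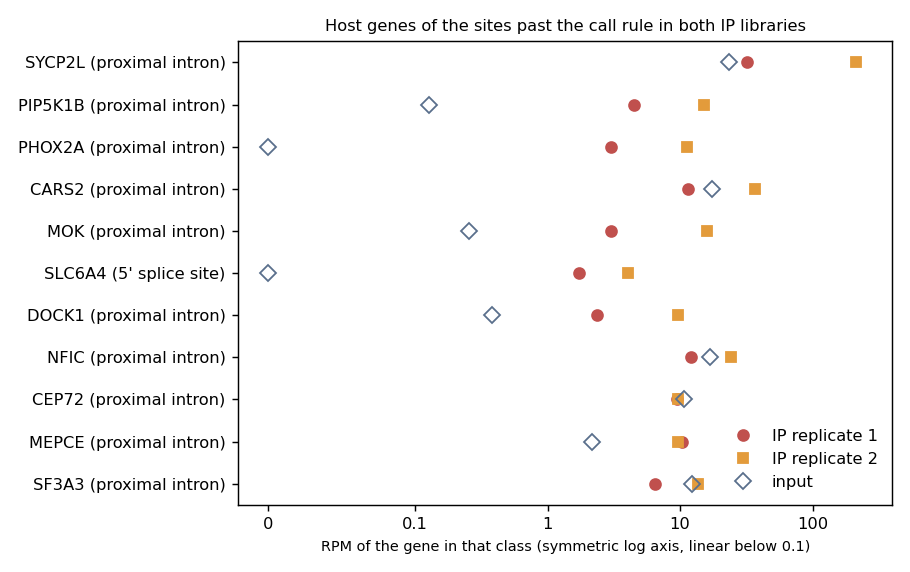
Reads per 1000000 counted reads (RPM, x axis, symmetric log scale, linear below 0.1) in the class of the site, for the 11 genes with a site past the call rule in both IP libraries. Circles are IP replicate 1, squares IP replicate 2 and open diamonds the input. PHOX2A and SLC6A4 have an input value of 0, and IP replicate 2 lies to the right of IP replicate 1 in every gene but MEPCE.

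By lines past the rule summed over both libraries, SYCP2L led with 8 peaks, and CARS2, CEP72, DOCK1, NFIC and PHOX2A had 4 each. Of the 5' splice-site peaks past the rule, 2 of 5 in IP replicate 1 had no peak at that position in IP replicate 2. For IP replicate 2, 11 of 17 had none in IP replicate 1. A called peak of any class in the other library overlapped 1 of the 5 and 2 of the 17. The 5' splice-site genes given next were chosen after their values were seen, whether or not the other library had a peak there. In IP replicate 2 the highest were in ATP1B1, a subunit of the sodium pump (log2 fold 6.55, 22 bases), PRKCZ, an atypical protein kinase C (5.96, 21 bases), the RNA-binding protein gene MSI1 (5.23, pieces of 5 and 17 bases) and SIKE1 (5.23, 35 bases), which encodes a suppressor of the kinase IKK epsilon. IP replicate 1 had 5' splice-site peaks that missed the rule at the positions of ATP1B1 (log2 fold 2.33) and PRKCZ (3.33). ATP1B1 had 5 and 15 reads of the class in IP replicate 1 and IP replicate 2 and 0 in the input, and PRKCZ had 6 and 10 and 0. MSI1 had 1 and 6 and 0, and SIKE1 had 0 and 7 and 4. In IP replicate 1 STAM, which encodes a subunit of the endosomal sorting machinery, had adjoining peaks of 81 and 78 bases with log2 folds of 4.18 and 3.82, and 32 class reads against 5 in the input. IP replicate 2 had 5 class reads of STAM. The metastasis suppressor gene NDRG1 had 5' splice-site peaks past the rule in both libraries at separate positions (4.33 in IP replicate 1 and 4.45 in IP replicate 2).

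The single 3' splice-site peak past the rule in IP replicate 1 was in FOXRED1, for a complex I assembly factor (log2 fold 3.33, 55 bases), with 19 class reads there and 8 in IP replicate 2, against 37 in the input. In IP replicate 2 the 3' splice-site peaks past the rule were in ANKRD11, a chromatin regulator (5.45), MYLIP, a ubiquitin ligase for the LDL receptor (3.64), UBE2J2 and ULK1 (3.23 each) and FAM120B (3.13). ULK1 is the kinase that starts autophagy. These genes had no 3' splice-site peak past the rule in the other library.

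The members next to the threshold and at the low end were as follows, with no test. In IP replicate 1 the 5' splice-site peak just inside was in RBM12B (log2 fold 3.33) and that just outside in SRRM2 (2.75), a nuclear speckle scaffold. For IP replicate 2 they were in ATXN2L (3.64) and again SRRM2 (2.54). For proximal introns AP2A2 (3.01) was inside and ATF1 (2.96) outside in IP replicate 1, and MYLIP (barely inside) and PLEC (2.75) in IP replicate 2. For 3' splice sites FOXRED1 (3.33) and ULK1 (2.59) bordered it in IP replicate 1, and FAM120B (3.13) and the myeloid factor gene SPI1 (2.16) in IP replicate 2. The lowest fold with a -log10 p of 3 or more was 0.93 at the 5' splice site of the histone gene H2BC12 in IP replicate 1 and 1.76 at that of the translation factor gene EIF4A1 in IP replicate 2. STXBP2, a granule exocytosis gene, had the lowest 3' splice-site folds (1.76 in IP replicate 1 and 1.98 in IP replicate 2). In proximal introns the lowest were those of the helicase gene DDX5 (1.44, IP replicate 1) and of HNRNPU (2.09, IP replicate 2).

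Among the authors' deposited list of 1587 reproducible peaks, 4 (0.252%) overlapped a peak of these classes. As the authors' deposited table gives them, 3 were adjoining pieces of the SYCP2L site, with log2 folds of 8.80 to 8.82, and the fourth overlapped a 5' splice-site peak of NDRG1 in IP replicate 2, with a log2 fold of 4.24. Peaks of coding sequence in IP replicate 1 overlapped 59.1% of the same list.

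Counts of all reads per class, which do not depend on peak calling, set the 3 classes apart. Reads in 5' splice-site windows were 1.91% of all counted reads in IP replicate 1, 2.17% in IP replicate 2 and 2.61% in the input. Reads in 3' splice-site windows were 1.58% and 1.69% in the IP libraries and 2.47% in the input, and proximal-intron reads 3.43% and 3.71% in the IP libraries and 8.97% in the input. The IP to input ratio was 0.780 ± 0.0692 (SD, n = 2) for 5' splice sites, 0.664 ± 0.0317 for 3' splice sites, 0.397 ± 0.0221 for proximal introns and 0.348 ± 0.0324 for distal introns. The IP libraries were on the same side of the input in all 4 classes, and their gap was smaller than the distance to the input. With 2 IP libraries against 1 input, an exact permutation test cannot give a two-sided p below 0.333.

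Of the reads in the 4 intron classes alone, 8.65% and 8.71% lay in 5' splice-site windows in IP replicate 1 and IP replicate 2, and 4.30% in the input, so the share in the IP was 2.02 ± 0.00995 times that of the input (SD, n = 2). For 3' splice sites the shares were 7.16% and 6.81% in the IP libraries and 4.06% in the input (1.72 ± 0.0620 times). Proximal introns held 15.5% and 14.9% in the IP libraries and 14.8% in the input (1.03 ± 0.0290 times), and distal introns 68.7% and 69.6% in the IP libraries and 76.9% in the input. Both splice-site windows thus took a larger part of the intron reads in each IP library than in the input, by more than the gap between the IP libraries. For the proximal intron the mean difference from the input was smaller than that gap. How the counter treated a read that spans an exon and the window next to it is not given in the sources used here. Exonic reads were enriched in the IP, and their part in the splice-site counts was not tested.

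**Figure D4:**
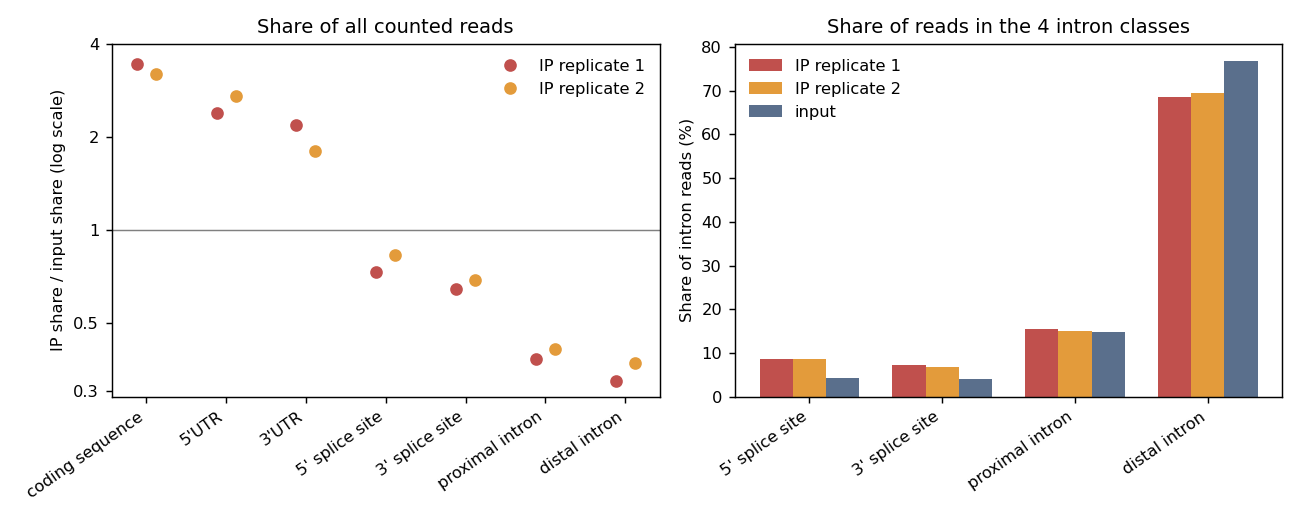
Left, share of all counted reads in each transcript region of the IP over that of the input (y axis, log scale) for IP replicate 1 and IP replicate 2, with a line at 1. Right, share (%) of the reads of the 4 intron classes in both IP libraries and the input. Ratios fall from 5' splice sites (0.731 and 0.829) to proximal introns (0.382 and 0.413) on the left, and both splice-site classes are above the input on the right.

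Gene by gene, reads of these classes were lower in the IP far more often than higher. A row, meaning 1 class of 1 gene, was tested where 2 or more of the 3 libraries had 10 or more reads. Calls were made with edgeR's quasi-likelihood test (Benjamini-Hochberg adjusted p under 0.05) in 1 fit over 36307 rows, of which 26.4% were called higher and 29.8% lower. At 5' splice sites 20 of 2636 genes were higher (0.759%) and 274 lower (10.4%), with a median log2 fold of -0.50. At 3' splice sites 7 of 2203 were higher and 438 lower (19.9%), with a median of -0.70. In proximal introns 13 of 4352 were higher and 3177 lower (73.0%), with a median of -1.56. Distal introns had a median of -1.83, coding sequence 1.39 and all rows -0.05. Of the 3929 calls in the 3 classes, 3925 had one direction in both IP libraries. The calls were made from these same libraries against the shared input, so this count is a description and not a replication. DESeq2 called 6 higher and 9 lower at 5' splice sites, 3 and 15 at 3' splice sites and 2 and 654 in proximal introns, and it gave no adjusted p for 2037, 1704 and 2115 of the rows. In simulated data on the 36307 rows, of which 200 were changed, edgeR recovered 50% of rows changed 4-fold and 5% of those changed 2-fold. Far more rows were called in the real data, so these shares do not give the smallest difference that could be called there.

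Genes with a peak of the class in either list had nearly the same median fold as the others at splice sites. Those with a 5' splice-site peak had a median log2 fold of -0.49 (376 genes, 14.1% lower) and those without -0.51 (2260 genes, 9.78% lower). For 3' splice sites the medians were -0.67 (211 genes) and -0.70 (1992 genes), and for proximal introns -1.36 (1440 genes) and -1.66 (2912 genes). The peaks were called from the same IP reads, so this split is a description. Of the 69 pairs of gene and class that held a peak past the call rule, 50 were tested, and 11 were higher, 6 lower and 33 not called, again a description.

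For the genes with a site in both libraries, the fold over the whole class is given as a description, since the sites were chosen on the same IP reads. The proximal introns of PHOX2A, PIP5K1B, MOK and DOCK1 entered the test through their IP reads alone, so their calls as higher lend the sites no support, and only the bounds and ratios above are given. SYCP2L had a log2 fold of 2.09 (SE 0.41, adjusted p 2.02e-06 by edgeR), which rested on IP replicate 2 (0.17 in IP replicate 1 and 2.95 in IP replicate 2). MEPCE had a log2 fold of 1.93 (SE 0.54, adjusted p 0.00105 by edgeR), with 1.86 and 1.98 in the 2 IP libraries after a prior count of 2 was added. Neither was called by DESeq2. CARS2 (0.04), NFIC (-0.29), CEP72 (-0.44) and SF3A3 (-0.73) were not called, on the log2 scale over the whole class.

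Some rows reached the read minimum through the IP libraries alone, with under 10 input reads, and they were 2 at 5' splice sites, 2 at 3' splice sites and 5 in proximal introns, all called higher. Such rows could hardly have been called otherwise. H2BC11 and MYADM at 5' splice sites, DIABLO at 3' splice sites and SMLR1 in proximal introns, named below, were among them. Rows called higher lay in genes without a peak of that class for 13 of the 20 at 5' splice sites, 5 of the 7 at 3' splice sites and 2 of the 13 in proximal introns. In 14 of the 40 rows called higher, the log2 fold of IP replicate 2 exceeded that of IP replicate 1 by more than 1. The rows named in this and the next paragraph were chosen after their values were seen. VARS1, for the cytosolic valyl-tRNA synthetase, led the 5' splice sites (log2 fold 3.75, SE 0.46, adjusted p 7.94e-14 by edgeR). It had 374 and 301 reads in the IP libraries and 77 in the input, with log2 folds of 2.72 and 4.36. It was followed by RPL37A, a protein of the large ribosomal subunit, with 324 and 108 reads in the IP libraries and 52 in the input (3.28, SE 0.44). The histone genes H2BC11 (3.15), H3C4 (2.55) and H2BC12 (1.52) were also called higher there, as were the ubiquitin gene UBB (2.10) and RPL38 (2.04). H2BC11 had 24 and 18 5' splice-site reads in the IP libraries against 923 and 210 coding reads, and H3C4 had 78 and 28 against 1065 and 360. The part of exonic reads in these splice-site counts was not tested. At 3' splice sites DIABLO, for an apoptosis factor released by mitochondria, led with 29 and 48 reads in the IP libraries and 4 in the input (log2 fold 4.90, with 2.83 in IP replicate 1 and 5.47 in IP replicate 2). RBM15, for an RNA-binding protein of the m6A methyltransferase complex, followed with 115 and 21 reads in the IP libraries and 17 in the input (3.03, SE 0.50).

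Several of these genes were high in more than 1 class. RBM15 was also higher in the proximal intron, with 236 and 52 reads in the IP libraries and 77 in the input (log2 fold 1.98, SE 0.40), and its 5' splice-site row was not called (1.31, adjusted p 0.0543 by edgeR). RPL37A was higher at 5' and 3' splice sites (3.28 and 2.90) but lower in the proximal intron, with 17 and 4 reads in the IP libraries and 64 in the input (-1.48, adjusted p 0.00964 by edgeR). HSP90AA1, an inducible chaperone gene, was higher at 5' (1.13) and 3' splice sites (1.12), and its proximal intron was not called. TNF, a central inflammatory cytokine, was higher at 5' (1.05) and 3' splice sites (1.25) and not called in the proximal intron (0.71). In proximal introns SMLR1 had 53 and 39 reads in the IP libraries and 0 in the input. With a floor of 3 input reads, IP replicate 1 was at least 29.7-fold higher and IP replicate 2 at least 81.6-fold higher. SMLR1 had no peak in these classes. Its row reached the read minimum through the IP reads alone, so its call lends no support. RPSA, higher at 3' splice sites (0.88), had opposite signs in the 2 IP libraries, -0.68 in IP replicate 1 and 1.66 in IP replicate 2.

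The lowest rows were introns of ribosomal protein genes. RPS2 had 143 and 96 reads of its 5' splice sites in the IP libraries and 4756 in the input (log2 fold -3.81), and RPL5 had 59 and 12 against 797 (-3.40). RPL12 led the low 3' splice sites with 88 and 42 reads in the IP libraries and 2395 in the input (-3.87). RPL30 led the low proximal introns with 199 and 82 reads in the IP libraries and 11139 in the input (-5.00). Of 55 ribosomal protein genes tested at 5' splice sites, 4 were higher (RPL13, RPL37A, RPL38 and RPS28) and 6 lower. The group thus had calls in both directions, with a median of -0.15 against -0.50 over all 5' splice-site rows. At 3' splice sites 2 were higher and 11 lower of 56, and in proximal introns none were higher and 29 lower of 53. These genes host many snoRNAs and have processed copies elsewhere in the genome, and reads that several copies share make single rows uncertain.

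Other gene groups had rows called lower but none higher. Over the classes as a whole 10.4% of 5' splice-site rows, 19.9% of 3' splice-site rows and 73.0% of proximal-intron rows were lower, with median log2 folds of -0.50, -0.70 and -1.56. Factors of the core spliceosome and U2AF had 3 of 22 genes lower and none higher at 5' splice sites (median log2 fold -0.40), 2 of 21 lower at 3' splice sites (-0.44) and 22 of 28 lower in proximal introns (-1.49). For SR proteins and their kinases 1 of 16, 6 of 16 and 16 of 19 were lower in the 3 classes (-0.32, -0.79 and -1.64), and for hnRNP genes 8 of 22, 10 of 19 and 18 of 22 (-0.85, -0.95 and -1.55). P-body and mRNA decay factors had 1 of 22, 4 of 18 and 24 of 28 lower (-0.46, -0.52 and -1.84), chromatin modifiers 5 of 58, 1 of 58 and 53 of 64 (-0.36, -0.56 and -1.64), and snoRNA host genes 9 of 17, 8 of 18 and 15 of 18 (-0.85, -0.86 and -1.65). At splice sites snoRNA host genes (52.9% at 5' and 44.4% at 3' sites) and hnRNP genes (36.4% and 52.6%) had larger shares of lower rows than the class. Chromatin modifiers were close to the class at 5' sites (8.62%) and below it at 3' sites (1.72%). The smallest 5' shares were those of P-body and decay factors (4.55%) and SR proteins (6.25%), with 1 lower gene each. No row of these 6 groups was called higher by edgeR, of 486 tested, where the share called higher over all rows of the 3 classes was 0.435%. Of the 35 spliceosome genes listed, SF3A3 and SF1, which binds the branch point, had peaks past the rule, and of the 46 listed P-body and decay factors ATXN2L, a P-body and stress granule protein gene, had one. Genes of like function outside these lists also had such peaks, among them SNRNP27, a protein of the U4/U6.U5 tri-snRNP (4.96 in IP replicate 2), and ZC3H12A, an RNase that degrades mRNA (4.47 in IP replicate 1), both in proximal introns and picked after their values were seen.

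Immediate early and inflammatory genes included rows called higher. At 5' splice sites 3 of 7 were higher, CXCL8, MYC and TNF, with a median log2 fold of 1.02, where 0.759% of all 5' splice-site rows were higher and their median was -0.50. CXCL8, a chemokine gene, had 57 and 7 reads in the IP libraries and 20 in the input (1.68, SE 0.53, adjusted p 0.00340 by edgeR). MYC had 32 and 18 reads in the IP libraries and 27 in the input (1.18, SE 0.51, adjusted p 0.0394 by edgeR). At 3' splice sites TNF was higher of 6 tested (median 0.67, against 0.318% of all rows higher and a median of -0.70), and in proximal introns 2 of 7 were lower and none higher (median -0.65, against 73.0% of all rows lower and a median of -1.56). With 7 genes tested, the list gives a description only, and its choice rests on earlier results of these data.

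In differences between classes within the same gene the scaling of a library cancels. The values per IP library add a prior count of 2 to the raw counts, however, which weighs more where reads are few, as in IP replicate 2. The IP to input fold was higher at 5' splice sites than in the proximal intron of the same gene by a median of 0.99 log2 (2985 genes, 90.5% above 0), with 0.96 in IP replicate 1 and 1.16 in IP replicate 2. It was higher at 3' splice sites than in the proximal intron by 0.69 (2715 genes, 82.3% above 0; 0.70 and 0.88 in the 2 IP libraries). Between 5' and 3' splice sites the median difference was 0.25 (2487 genes, 65.7% above 0; 0.21 and 0.24), and between proximal and distal intron 0.27 (5536 genes, 69.1% above 0; 0.37 and 0.43). Against coding sequence of the same gene the median was -2.06 at 5' splice sites and -2.31 at 3' splice sites, where 2369 of 3039 genes (78.0%) and 2344 of 2775 (84.5%) were called lower. Splice-site windows thus lay between proximal intron and coding sequence, nearer to the intron, in both IP libraries.

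**Figure D5:**
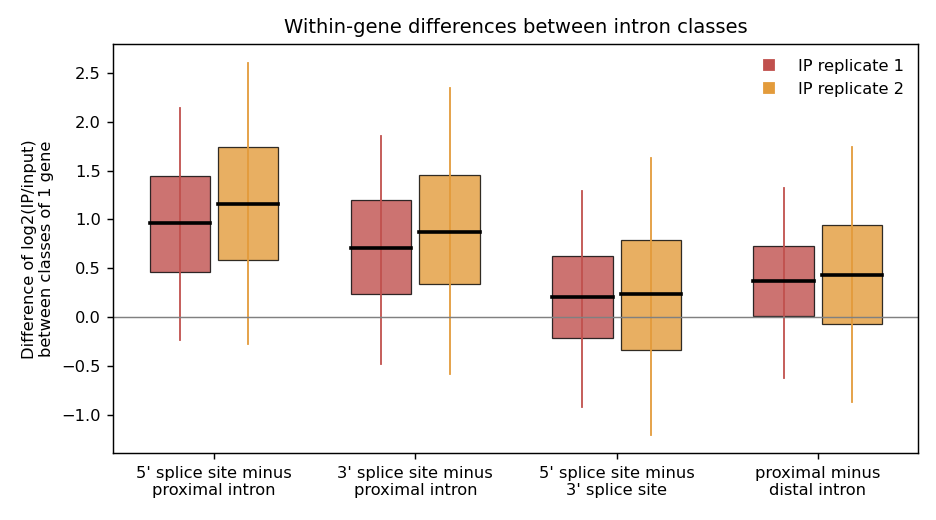
Difference between 2 intron classes of the same gene in log2 of IP over input (y axis, prior count of 2), for 4 pairs of classes, in IP replicate 1 and IP replicate 2. Boxes give the quartiles with the median as a thick line, and thin lines run from the 5th to the 95th percentile of genes. The medians for 5' splice sites minus proximal intron are 0.96 and 1.16, the largest of the 4 pairs.

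Few single genes passed the test of such a difference. In edgeR's interaction test no gene (0.00%) was called for 5' splice site against proximal intron, with 704 higher and 2 lower at an unadjusted p under 0.05. With at least 30 reads per class on average 620 genes were tested, and 244 were higher and 3 lower. For 3' splice site against proximal intron 6 genes (0.221%) were higher, DIABLO, RPL30, RPL37A, the translation initiation factor gene EIF3A, the cohesin gene RAD21 and JMJD1C, and 1 (0.0368%), RPS2, was lower. DIABLO had 4 input reads at its 3' splice site and met the minimum there through the IP libraries, so its call is a description only. In RPL30, 3' splice-site reads numbered 58 and 14 in the IP libraries and 64 in the input, against 199 and 82 and 11139 in the proximal intron (difference 5.39, SE 0.57, adjusted p 0.00196 by edgeR). In RPL37A the 3' splice site had 159 and 70 reads in the IP libraries and 38 in the input, and the proximal intron 17 and 4 and 64 (4.21, SE 0.48, adjusted p 0.00214 by edgeR). In RPS2 the 3' splice site had 66 and 58 reads in the IP libraries and 1509 in the input, and the proximal intron 26 and 12 and 59 (-2.94, SE 0.51, adjusted p 0.0455 by edgeR). No gene was called for 5' against 3' splice site (77 higher and 15 lower at an unadjusted p under 0.05).

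Against coding sequence, 6 genes were higher at 5' splice sites (0.197%), VARS1, MYADM, H2BC11, UBB, RPL38 and H3C4. MYADM and H2BC11 had 9 and 6 input reads at 5' splice sites. They met the minimum there through the IP libraries, so their calls are a description only. VARS1 had 163 and 68 coding reads in the IP libraries and 213 in the input, so that its 5' splice-site fold exceeded its coding fold by 3.10 log2 (SE 0.44, adjusted p 1.12e-05 by edgeR). MYADM, a myeloid differentiation marker, had 55 and 10 5' splice-site reads in the IP libraries and 9 in the input, and 503 and 164 coding reads in the IP libraries and 524 in the input (2.38, SE 0.57). No gene was higher at 3' splice sites than in its coding sequence by edgeR (1 at an unadjusted p under 0.05).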

How the data were processed

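DDX6 eCLIP of MOLM-13 cells gave 2 IP libraries and 1 input. The tools that the submitters' processing notes name are UMI-tools, cutadapt, STAR and SAMtools, and the build is hg19. Neither peak caller, counter nor annotation is given in the sources used here. What the authors deposited are raw counts of reads per gene region, and peak lists with a -log10 p (capped at 400) and a log2 fold over the shared input. A peak's class is the first entry of its annotation. A site named here had a peak of these classes past the call rule in each library (overlap of 1 base or more, same strand). Up to 8 per class were named by the lower fold. The rule also took the 3 genes with most called peaks, the lowest fold per class, and up to 3 genes per list. MEPCE fell outside this rule and completes the set of sites. The members, lists and tests were chosen with earlier results of these data known, and the within-gene contrasts after seeing the data.

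Counts were tested with edgeR 4.0.16 (TMM, quasi-likelihood, 1 residual degree of freedom, the input assumed to vary like the IP libraries, coefficient of variation 21.2%), in 1 fit over gene regions, intergenic and total lines left out (intergenic reads were 4.05% and 3.78% of the IP libraries and 2.63% of the input). The prior degrees of freedom of the gene region fit were infinite, so each row took the pooled spread and not its own. Log2 folds per library used a prior count of 2. Within-gene contrasts were an interaction of class and IP, for genes with 10 reads or more on average in both classes. DESeq2 1.42.0, other scalings, other filters and each IP library left out were alternatives. Tests were checked on simulated data. Gene symbols of 2337 of 2365 genes with such peaks matched the table at hand; others keep the identifier of the files.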

Additional observations from a re-analysis of the deposited data

How the results depend on the processing

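No paired analysis was possible because the single input carries no replicate number and is shared by both IP libraries. Averaged over both libraries, the share of peaks past the call rule was 3.01% at 5' splice sites, 1.52% at 3' splice sites and 3.32% in proximal introns. A stricter rule (-log10 p of 5 and log2 fold of 4) gave 0.947%, 0.263% and 1.46%, and a looser fold of 1 gave 4.89%, 2.68% and 4.07%, which put 5' splice sites above proximal introns. The median log2 fold, averaged over both libraries, was 3.46 at 5' splice sites and 4.22 in proximal introns among peaks with a -log10 p of 3 or more, against 2.03 and 1.83 among all. With at least 50% of the peak covered in place of 1 shared base, 6.29% of 5' splice-site peaks overlapped a peak of the other library. Leaving out the 1% of genes with most input reads gave IP to input ratios of 0.610 for 3' splice sites and 0.373 for proximal introns among all reads, and of 2.03 for 5' splice sites and 0.885 for distal introns among intron reads.

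Counts of tested rows depended on tool and scaling, in the order 5' splice site, 3' splice site, proximal intron and all 3 together. With DESeq2's size factors in edgeR 12, 3, 6 and 21 rows were higher, and 81 (5'), 156 (3') and 2538 (all) were lower, every one of them also called in the main test. DESeq2 itself called 6, 3, 2 and 11 higher, and 9, 15, 654 and 678 lower. It ended 114, 166 and 1319 calls of the 3 classes, apart from rows to which it gave no adjusted p. With library size alone, which raised the median log2 fold of all rows by 0.27, 19 (3'), 20 (proximal) and 67 (all) were higher, and 107 (5') and 236 (3') lower. Requiring only 1 read in any library gave 11 higher at 3' splice sites and 132 lower at 5' splice sites.

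Leaving out an IP library leaves no spread to test, so rows at a fold of 2 or more were counted. That gave 32 to 87 higher rows at 5' splice sites, 12 to 49 at 3' splice sites, 12 to 31 in proximal introns and 56 to 167 in all. Lower rows numbered 544 to 836 at 5' splice sites and 691 to 939 at 3' splice sites. The within-gene median of 5' against 3' splice site was 0.23 to 0.33 log2 in the same way. With a mean of 30 reads or more, which tests fewer genes, the within-gene test called 244 higher and 3 lower for 5' splice site against proximal intron, 56 and 4 for 3' splice site against proximal intron, and 10 and 2 for 5' against 3' splice site. The 30-read filter, the left-out genes and the within-gene alternatives were chosen after seeing the data. The other causes were not tested. Of 120 values under an alternative that answer a comparison, 74 were rated the same, 12 moved, 16 stronger and 18 weaker. For counts of rows this rating compares their size alone, so it says nothing on direction. Splice-site rows had a median of some 35 to 50 input reads, which limits what single genes can show.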
